A study of Mus musculus with 12 samples.

Results

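The genes described here are 30 genes of the podocyte and of its slit diaphragm, measured in mouse kidney RNA. They were taken by gene name from the 43346 genes of the deposited table, where the 30 names cover 32 rows, because Magi2 and Pla2r1 are each listed under 2 identifiers. Kidney at day 1 of HP-AKI, with 6 libraries numbered 7, 8, 9, 11, 12 and 13, was compared with kidney at day 1 of a sham procedure, with 6 libraries numbered 1 to 6. AKI is acute kidney injury, and in this field HP-AKI stands for injury by heme proteins, although the labels do not spell it out. Strain, genotype, sex, age and the injected agent are not given in the sources used here. Libraries held 31624522 to 40630917 gene counts in HP-AKI and 35201197 to 41951129 in sham. Levels are given as counts-per-million (CPM) after scaling by edgeR's TMM factors, and a change was called at an adjusted p below 0.05. Where several levels stand in a row for a group, they are its minimum, median and maximum over 6 libraries. Nothing in the labels says that the libraries come from separate animals, so each p-value measures only the spread between these libraries.

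Podocytes are the epithelial cells that wrap the capillaries of the glomerulus, the filter of the kidney. Their interlocking foot processes are bridged by the slit diaphragm, a junction built around nephrin and proteins of the Neph family, which is tied by adaptor proteins to an actin cytoskeleton. Podocytes are a small share of kidney cells, and mutations in many of the genes described here cause nephrotic syndrome in humans.

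Defining markers of podocytes were present, since Nphs1, Podxl, Wt1 and Synpo each had at least 309 counts in every library. All 4 are among the 30 genes, so this shows that podocyte RNA was captured and not which cells gave the counts of any member, these 4 included. They did not share a direction, as Nphs1 was lower in HP-AKI and Podxl, Wt1 and Synpo were higher. Because RNA of whole kidney was measured, a change in the number of cells of a type and a change in RNA per cell cannot be told apart. Of the 30 genes, 8 are known to be made in other kidney epithelium as well and are called widely expressed below. These are Cd2ap, Actn4, Ezr, Tjp1, Inf2, Myo1e, Arhgap24 and Dach1. Across all genes, a first principal component with 81.3% of the variance separated HP-AKI from sham. A second one with 7.85% was a gradient, lowest in HP-AKI 8 (-45.6), sham 2 (-45.1) and sham 1 (-29.2). HP-AKI 9 followed at -16.3, and HP-AKI 13 was highest at 31.3. The counts of called genes are also given without HP-AKI 8, sham 1 and sham 2, which is a chosen cut.

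The 30 genes held calls in both directions, as did all genes tested. Of the 30 genes, all of which passed the filter on low counts, 15 were higher and 10 lower in HP-AKI than in sham, and 5 did not pass the test. The 25 calls make 83.3% of the members, where 72.8% of the 17470 genes tested were called (37.7% higher and 35.2% lower). The median log2 fold change was 0.21 over the members and 0.04 over all genes tested. The widely expressed members were mostly higher, with 6 higher, 1 lower and a median of 0.69. Among the other 22, 9 were higher and 9 lower (40.9% each), near the shares of all genes tested, with a median of -0.06. The split concerns epithelium only, and Tcf21 and Nes, among the 22, are also made in stromal or vascular cells. Which cells made the RNA of the 22 was not tested. At least 2-fold changes were seen for 3 genes higher in HP-AKI (Inf2, Nes and Ezr), where 16.1% of all genes tested passed that rule. They were seen for 6 genes lower in HP-AKI (Npr3, Arhgap24, Tcf21, Clic3, Robo2 and Clic5), where 17.1% of all genes passed. In 12 members all HP-AKI libraries lay above all sham libraries and in 8 all lay below. Over all genes tested the groups did not overlap in 52.4%, with 26.7% all above and 25.8% all below.

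**Figure D1:**
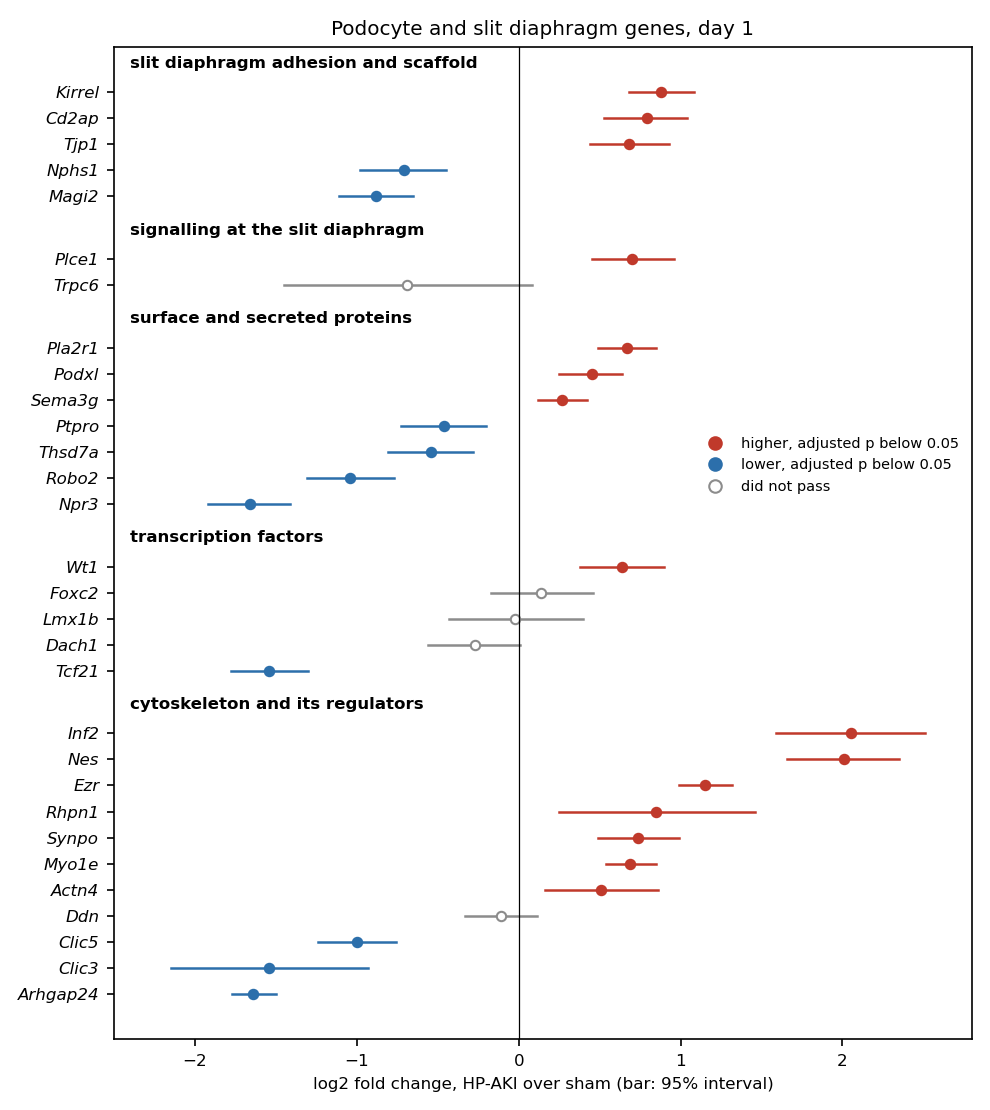
Log2 fold change of HP-AKI over sham for each of the 30 genes, grouped by role, with its 95% interval as a bar (6 libraries a group). Filled red points are called higher, filled blue points called lower and open points did not pass; every role except the 2 signalling genes holds calls in both directions.

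Among the 5 adhesion and scaffold genes of the slit diaphragm, 3 were higher and 2 lower in HP-AKI, and in none of them did the groups overlap. Over all genes tested, 37.7% were called higher and 35.2% lower, and in 52.4% the groups did not overlap. The counts of this role and of those below stand beside these shares. Nephrin (Nphs1, ENSMUSG00000006649, chromosome 7 from 30458315 to 30487223 in GRCm38), the transmembrane protein that forms the core of the junction, had 13.3, 17.3 and 19.4 CPM in HP-AKI, against 22.6, 26.9 and 35.6 CPM in sham. All HP-AKI libraries lay below all sham libraries, and the log2 fold change was -0.71 ± 0.12 (SE; edgeR adjusted p = 0.000102). Its binding partner Neph1 (Kirrel, ENSMUSG00000041734, chromosome 3 from 87078593 to 87174747) moved the other way. Kirrel had 35.2, 45.1 and 51.3 CPM in HP-AKI, against 21.7, 24.3 and 26.0 CPM in sham, a log2 fold change of 0.88 ± 0.09 (edgeR adjusted p = 5.55e-07).

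The scaffold genes around them were also divided. Magi2 (ENSMUSG00000040003, chromosome 5 from 19227046 to 20704798), a membrane-associated guanylate kinase that binds nephrin, fell to 6.92 ± 0.6 CPM in HP-AKI, against 12.8 ± 1.68 CPM in sham (SD, n = 6 each). The highest HP-AKI library, at 7.81 CPM, stayed under the lowest sham library, at 9.93 CPM, and the log2 fold change was -0.88 ± 0.11 (edgeR adjusted p = 3.2e-06). The second identifier named Magi2 was too rare to test. Cd2ap, an adaptor that links nephrin to actin, had 282, 312 and 407 CPM in HP-AKI, against 159, 173 and 242 CPM in sham, a log2 fold change of 0.79 ± 0.12 (edgeR adjusted p = 2.65e-05). Tjp1, the tight junction protein ZO-1, had 177, 188 and 269.6 CPM in HP-AKI, against 108, 116 and 149.9 CPM in sham, a log2 fold change of 0.68 ± 0.12 (edgeR adjusted p = 7.23e-05). Both are widely expressed, and all HP-AKI libraries lay above all sham libraries in both.

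**Figure D2:**
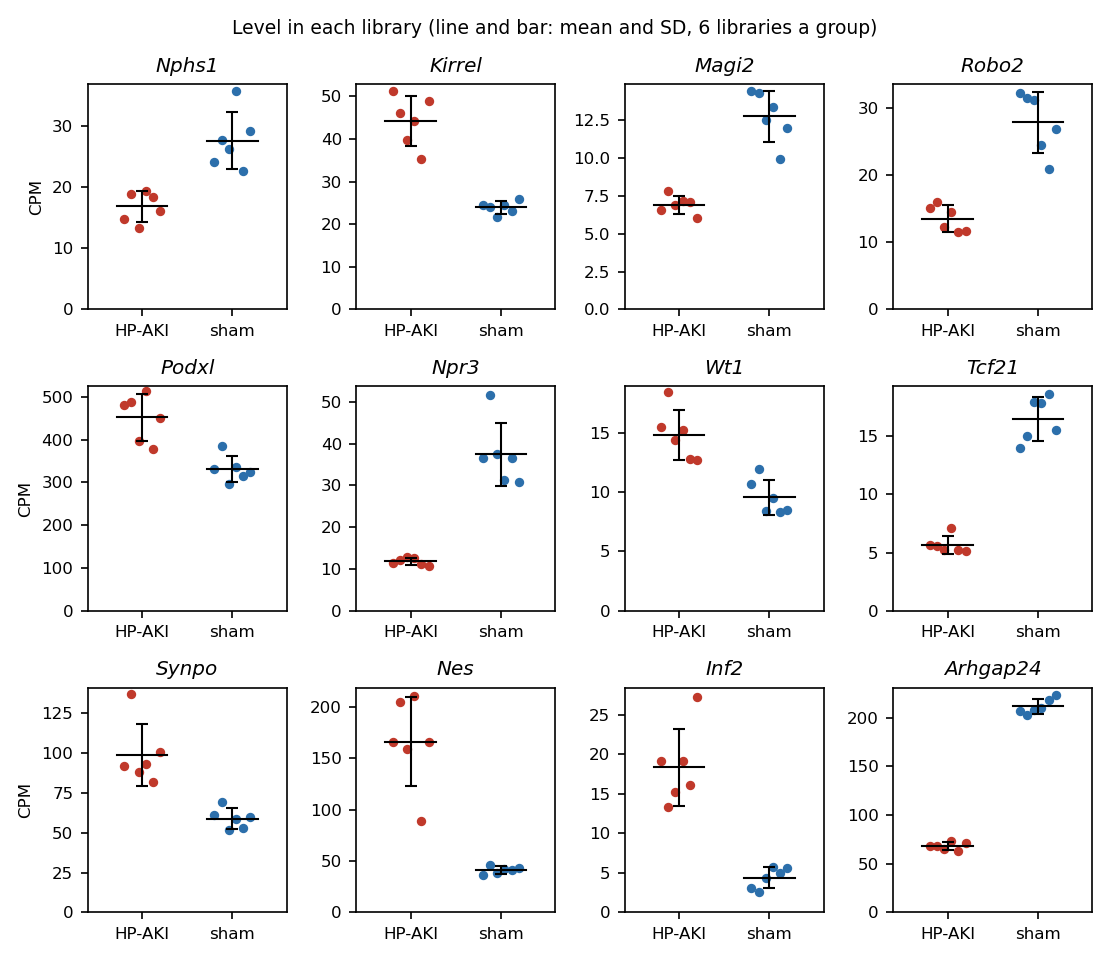
CPM in each library for 12 genes, with HP-AKI at the left and sham at the right of each panel; points are libraries, the line is the mean and the bar the SD (n = 6 each). Nphs1, Magi2, Robo2, Npr3, Tcf21 and Arhgap24 lie lower in HP-AKI without overlap, Kirrel, Wt1, Synpo, Nes and Inf2 lie higher without overlap, and Podxl is higher with overlap.

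Signalling at the slit diaphragm was represented by a phospholipase and a calcium channel. Plce1, phospholipase C epsilon, had 18.0, 18.9 and 28.6 CPM in HP-AKI, against 10.9, 12.9 and 14.1 CPM in sham. The groups did not overlap, and the log2 fold change was 0.70 ± 0.12 (edgeR adjusted p = 8.35e-05). Trpc6, the calcium channel, was the rarest of the 30 genes, down to 4 counts in HP-AKI 12. It had 0.113, 0.465 and 0.728 CPM in HP-AKI, against 0.317, 0.75 and 1.15 CPM in sham. Its log2 fold change of -0.69 had a 95% interval from -1.45 to 0.08 and did not pass (edgeR adjusted p = 0.097). It passed without HP-AKI 8 (-0.87, edgeR adjusted p = 0.0462) and without sham 6 (-0.86, edgeR adjusted p = 0.0343).

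Of the 7 surface and secreted proteins, 3 were higher and 4 lower in HP-AKI. Npr3 (ENSMUSG00000022206, chromosome 15 from 11839896 to 11905674), the clearance receptor for natriuretic peptides, changed most among them. It had 10.8, 11.8 and 12.8 CPM in HP-AKI, against 30.8, 36.5 and 51.7 CPM in sham, so the sham mean was 3.17 times the HP-AKI mean. The HP-AKI libraries lay close together and far under every sham library, and the log2 fold change was -1.66 ± 0.12 (edgeR adjusted p = 7.24e-09). Robo2, the receptor for SLIT ligands that binds nephrin through an adaptor, had 11.5, 13.4 and 16.1 CPM in HP-AKI, against 21.0, 29.1 and 32.3 CPM in sham. These groups did not overlap either, and the log2 fold change was -1.04 ± 0.13 (edgeR adjusted p = 2.37e-06).

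Ptpro, the receptor tyrosine phosphatase of the foot process membrane also called GLEPP1, had 13.2, 15.5 and 20.8 CPM in HP-AKI, against 18.6, 22.2 and 28.6 CPM in sham. The groups overlapped, and the log2 fold change was -0.46 ± 0.12 (edgeR adjusted p = 0.00338). Thsd7a, a target of autoantibodies in human membranous nephropathy, had 13.3, 15.0 and 19.5 CPM in HP-AKI, against 18.8, 20.8 and 29.9 CPM in sham. Here too the groups overlapped, and the log2 fold change was -0.54 ± 0.12 (edgeR adjusted p = 0.00105).

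Podocalyxin (Podxl), the sialomucin that coats foot processes, was higher in HP-AKI, and which cells made this RNA was not tested. It had 378, 466 and 514 CPM in HP-AKI, against 297, 328 and 384 CPM in sham, with overlap and a log2 fold change of 0.45 ± 0.09 (edgeR adjusted p = 0.000386). Pla2r1, the phospholipase A2 receptor and the main autoantigen of human membranous nephropathy, had 30.6, 38.8 and 43.7 CPM in HP-AKI, against 22.7, 24.1 and 25.8 CPM in sham, without overlap. Its log2 fold change was 0.67 ± 0.09 (edgeR adjusted p = 4.58e-06), and the second identifier of that name, which lies within the same locus, gave 0.67 ± 0.09 as well. The sources used here do not say how reads shared by both were counted, so these are not 2 independent values. Sema3g, a semaphorin that podocytes secrete, had 82.5, 87.3 and 90.2 CPM in HP-AKI, against 64.6, 70.1 and 80.8 CPM in sham. All HP-AKI libraries lay above all sham libraries, yet this was the smallest called change, at 0.27 ± 0.07 (edgeR adjusted p = 0.00266), and without HP-AKI 8, sham 1 and sham 2 it was 0.17 (edgeR adjusted p = 0.0355).

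The 5 transcription factors held 1 higher, 1 lower and 3 that did not pass. Wt1, which podocytes need to keep their identity, had 12.7, 14.8 and 18.4 CPM in HP-AKI, against 8.29, 8.99 and 11.9 CPM in sham. All HP-AKI libraries lay above all sham libraries, with a log2 fold change of 0.64 ± 0.12 (edgeR adjusted p = 0.000233). Tcf21 (ENSMUSG00000045680, chromosome 10 from 22817279 to 22820128), a basic helix-loop-helix factor needed for glomerular development and also made in kidney stromal cells, went the other way. It had 5.13, 5.39 and 7.15 CPM in HP-AKI, against 14.0, 16.6 and 18.6 CPM in sham. The lowest sham library lay well above the highest HP-AKI library, and the log2 fold change was -1.54 ± 0.11 (edgeR adjusted p = 9.23e-09).

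The remaining 3 factors did not pass, which does not show that their levels were equal. Lmx1b, a LIM homeodomain factor mutated in human nail-patella syndrome, averaged 1.62 ± 0.429 CPM in HP-AKI and 1.64 ± 0.338 CPM in sham (SD, n = 6 each), with a 95% interval of the log2 fold change from -0.43 to 0.40. Foxc2, a forkhead factor, averaged 1.93 ± 0.264 CPM in HP-AKI and 1.75 ± 0.283 CPM in sham, with an interval from -0.17 to 0.46. Both were among the rarest of the 30 genes. Dach1, a widely expressed co-regulator, averaged 28.6 ± 4.32 CPM in HP-AKI and 34.5 ± 7.22 CPM in sham, with an interval from -0.56 to 0.01 (edgeR adjusted p = 0.0763). Dach1 passed as lower with upper-quartile scaling (-0.32), without HP-AKI 8 (-0.38), without sham 5 (-0.34) and without HP-AKI 8, sham 1 and sham 2 (-0.20).

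Among the 11 genes of the cytoskeleton and its regulators, 7 were higher and 3 lower in HP-AKI. Inf2, a formin that assembles and severs actin filaments and is mutated in human focal segmental glomerulosclerosis, changed most. It had 13.3, 17.6 and 27.2 CPM in HP-AKI, against 2.58, 4.66 and 5.8 CPM in sham, 4.15-fold higher in HP-AKI with a log2 fold change of 2.05 ± 0.22 (edgeR adjusted p = 5.34e-07). Nes, the intermediate filament protein nestin, which adult kidney makes in podocytes and in some vascular cells, had 89.4, 166 and 210.1 CPM in HP-AKI, against 36.2, 41.6 and 45.9 CPM in sham. It was 4.03-fold higher in HP-AKI (log2 fold change 2.01 ± 0.16, edgeR adjusted p = 2.65e-08), and HP-AKI 12 held the lowest HP-AKI value. Ezr, ezrin, which links podocalyxin to actin and is abundant in proximal tubule, had 500.2, 508 and 622 CPM in HP-AKI, against 221, 239.5 and 256 CPM in sham. Its log2 fold change was 1.15 ± 0.08 (edgeR adjusted p = 2.83e-09). In all 3 genes the HP-AKI libraries lay above every sham library.

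Synpo, synaptopodin, an actin-binding protein that marks differentiated podocytes, had 81.8, 92.5 and 137 CPM in HP-AKI, against 51.9, 59.2 and 69.4 CPM in sham. The groups did not overlap, and the log2 fold change was 0.74 ± 0.12 (edgeR adjusted p = 3.56e-05). Myo1e, a class I myosin that ties membrane to actin, had 54.8, 56.8 and 67.0 CPM in HP-AKI, against 32.5, 36.3 and 38.6 CPM in sham, also without overlap (0.69 ± 0.07, edgeR adjusted p = 5.91e-07). Actn4, the actin crosslinker alpha-actinin-4, was higher with overlapping groups. Actn4 had 218, 305 and 388 CPM in HP-AKI, against 146, 225 and 254 CPM in sham (0.51 ± 0.16, edgeR adjusted p = 0.0108). Rhpn1, rhophilin-1, which mouse podocytes make, had 5.25, 8.82 and 16.2 CPM in HP-AKI, against 2.86, 5.58 and 7.35 CPM in sham, with overlap (0.85 ± 0.28, edgeR adjusted p = 0.0139). This call was lost in 1 of 20 alternative settings, without HP-AKI 13, where the log2 fold change was 0.60 (edgeR adjusted p = 0.0537).

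The cytoskeletal genes lower in HP-AKI were a GTPase-activating protein and both chloride intracellular channel family members. Arhgap24 (ENSMUSG00000057315, chromosome 5 from 102481391 to 102897936), which switches off the GTPase Rac1, had 62.7, 68.2 and 73.6 CPM in HP-AKI, against 203, 209 and 223 CPM in sham. The sham mean was 3.11 times the HP-AKI mean, and this was the change with the smallest edgeR adjusted p of the 30 genes, 1e-11, at a log2 fold change of -1.64 ± 0.06. Clic5, which joins ezrin and podocalyxin at the foot process membrane, had 78.6, 98.4 and 124 CPM in HP-AKI, against 167, 192 and 243 CPM in sham (-1.0 ± 0.11, edgeR adjusted p = 1.05e-06). Clic3, a related protein, had 0.641, 1.09 and 1.94 CPM in HP-AKI, against 1.97, 3.99 and 4.59 CPM in sham (-1.54 ± 0.29, edgeR adjusted p = 0.000173). In all 3 genes every HP-AKI library lay below every sham library, for Clic3 by a narrow margin. Dendrin (Ddn), a slit diaphragm protein that can enter the nucleus, did not pass. Ddn averaged 6.04 ± 0.319 CPM in HP-AKI and 6.52 ± 0.717 CPM in sham, with a 95% interval of the log2 fold change from -0.33 to 0.11.

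The start regions of the genes were read to show what lies upstream of members that moved apart. RefSeq promoters (GRCm38.p6, 250 bases before to 50 after a start) were matched for 23 of the 30 genes, with 27 starts. They were searched on both strands for GTGGGNG, a core that WT1 and EGR factors share, for TGANTCA, the AP-1 element, and for TAATTA, a homeodomain core. GTGGGNG was found in 12 of the 23 genes and in 13 of the 27 promoters, against 31.6% of all 32851 promoters in the table. By direction, it was found in 5 of 11 genes higher in HP-AKI, in 5 of 9 lower and in 2 of 3 that did not pass. TGANTCA was found in 2 genes, Actn4 (as TGAATCA) and Ezr (as TGACTCA), and in 7.81% of all promoters. The AP-1 element has C or G in the middle, so only the Ezr match is of that form. TAATTA was found in 1 gene, Magi2 (5.29% of all promoters). These are matches of letters, not binding sites. The 250 bases before the start are printed for 2 genes higher in HP-AKI, Inf2 (chr12:112588534-112588783, plus strand) and Tjp1 (chr7:65371245-65371494, minus strand), and for 2 genes lower in HP-AKI, Ptpro (chr6:137252049-137252298, plus strand) and Clic5 (chr17:44188322-44188571, plus strand). They run 5′ to 3′ on the strand of the gene, capitals mark GTGGGNG or its reverse complement, and each stretch holds 1 match apart from that of Clic5, which has none.
Inf2: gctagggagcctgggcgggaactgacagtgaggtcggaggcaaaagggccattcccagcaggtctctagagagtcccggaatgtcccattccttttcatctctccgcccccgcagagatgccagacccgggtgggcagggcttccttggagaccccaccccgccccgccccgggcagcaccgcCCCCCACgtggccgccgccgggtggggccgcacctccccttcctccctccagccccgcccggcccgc
Tjp1: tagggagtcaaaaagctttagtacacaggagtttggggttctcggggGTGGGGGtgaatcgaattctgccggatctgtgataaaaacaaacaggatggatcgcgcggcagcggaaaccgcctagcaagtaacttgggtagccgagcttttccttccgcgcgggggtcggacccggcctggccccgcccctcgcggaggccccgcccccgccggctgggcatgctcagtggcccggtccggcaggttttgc
Ptpro: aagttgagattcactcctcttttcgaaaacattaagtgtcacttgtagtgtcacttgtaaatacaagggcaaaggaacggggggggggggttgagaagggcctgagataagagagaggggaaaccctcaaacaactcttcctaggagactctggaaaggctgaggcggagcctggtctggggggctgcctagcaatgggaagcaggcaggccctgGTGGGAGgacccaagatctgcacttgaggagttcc
Clic5: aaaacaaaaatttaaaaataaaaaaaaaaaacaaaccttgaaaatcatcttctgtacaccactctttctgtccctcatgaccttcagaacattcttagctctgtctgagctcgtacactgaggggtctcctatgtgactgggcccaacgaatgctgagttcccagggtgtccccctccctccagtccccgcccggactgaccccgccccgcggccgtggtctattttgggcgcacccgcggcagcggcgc
The match begins 67 bases before the start in Inf2, 203 before it in Tjp1 and 35 before it in Ptpro. The 50 bases after the start were found whole in a GENCODE vM21 transcript for Inf2. For Tjp1, Ptpro and Clic5 they were not, so these starts lack that check.

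Other genes of the slit diaphragm and the podocyte, outside the 30, were also divided. Widely expressed genes were not set apart in these lists, and which cells made their RNA was not tested. Of all genes tested, 37.7% were called higher and 35.2% lower, and the counts of each list stand beside these shares. Of 19 slit diaphragm and polarity partners, 17 were tested, with 11 higher and 4 lower in HP-AKI and a median log2 fold change of 0.50. Prkcz, an atypical protein kinase C of the polarity complex, fell most (-1.56 ± 0.12, edgeR adjusted p = 1.4e-08). Ctnnb1, beta-catenin, the most abundant of them, averaged 611 ± 40.0 CPM in HP-AKI and 572 ± 6.48 CPM in sham (SD, n = 6 each), with an interval from -0.04 to 0.23. The Neph family genes Kirrel2 and Kirrel3 were too rare to test. Of 19 other podocyte-enriched genes, 18 were tested, with 6 higher, 4 lower and a median of 0.01. Tdrd5, a tudor domain protein, rose most among these (0.96 ± 0.15). Mapt, the microtubule-associated protein tau, fell most (-1.55 ± 0.08). Vegfa, the growth factor by which podocytes keep up the glomerular endothelium and which tubules also make, fell to 125 ± 12.1 CPM in HP-AKI, against 268 ± 27.2 CPM in sham (edgeR adjusted p = 2.06e-08).

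Genes of the glomerular basement membrane, and actin and adhesion regulators, held calls in both directions. Widely expressed genes were not set apart here either, so these counts are not those of podocytes alone. Of 16 genes of the glomerular basement membrane and its receptors, 9 were higher and 4 lower and 3 did not pass, with a median log2 fold change of 0.39. Without HP-AKI 8, sham 1 and sham 2 this list had 7 higher and 5 lower, since Lamb2 and Nid2 lost their calls and Dag1 gained one as lower. Itga3, the integrin alpha chain that binds podocytes to laminin, rose most, to 95 ± 20.9 CPM in HP-AKI, against 27.9 ± 7.84 CPM in sham. Itgb1, its beta chain, was the most abundant and was higher by 0.79 ± 0.10. The largest fall was in Col4a5, to 26.4 ± 1.47 CPM in HP-AKI, against 79.3 ± 3.28 CPM in sham. The other collagen IV chains of the mature membrane, named after their values were seen, were lower too, Col4a3 at -1.36 ± 0.10 and Col4a4 at -1.20 ± 0.09. Of 24 actin and adhesion regulators, 17 were higher and 2 lower and 5 did not pass, with a median of 0.65. The actin crosslinker Actn1 rose most (2.19 ± 0.08), to 147 ± 7.21 CPM in HP-AKI, against 32.2 ± 2.9 CPM in sham. Kank4, an adhesion protein mutated in human nephrotic syndrome, fell most (-2.45 ± 0.16), to 1.21 ± 0.34 CPM in HP-AKI, against 6.7 ± 0.362 CPM in sham. Cdc42, the GTPase, was the most abundant and was higher by 0.50 ± 0.11.

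Markers of neighbouring cell types also differed between the groups, in both directions. The shares over all genes tested were 37.7% higher and 35.2% lower. Glomerular endothelial markers had 7 higher and 2 lower of 12 and summed to 936 to 1451 CPM in HP-AKI, against 729 to 825 CPM in sham. In that list Plat, tissue plasminogen activator, rose most (1.78 ± 0.18), and Tek, the angiopoietin receptor, fell most (-0.92 ± 0.10). Plat alone averaged 269.6 ± 82.0 CPM in HP-AKI, against 78.6 ± 13.3 CPM in sham, so the sum leans on it. Ehd3 was also called lower (-0.33 ± 0.11, edgeR adjusted p = 0.0162), and Emcn, Sox17 and Tie1 did not pass. Which vessels the list reflects was not tested. Mesangial and mural markers had 5 higher and 5 lower of 12 and summed to 475 to 628 CPM in HP-AKI, against 333 to 443 CPM in sham. Among these Serpine2 rose most (1.80 ± 0.15), Ptn fell most (-2.64 ± 0.19) and Ren1, renin, was the most abundant (0.72 ± 0.17). Parietal epithelial markers had 4 higher and 2 lower of 8 and summed to 478 to 753 CPM in HP-AKI, against 285 to 339.8 CPM in sham. Akap12 rose most there, to 262 ± 53.2 CPM in HP-AKI, against 25 ± 0.993 CPM in sham, and made up most of the rise in that sum. Prom1 fell most (-0.45 ± 0.10). Which cells made the RNA of the parietal list was not tested either. Tubular markers had 1 higher and 7 lower of 10 and summed to 5988 to 9231 CPM in HP-AKI, against 14881 to 17148 CPM in sham. Cubn, the proximal tubule receptor cubilin, fell most (-3.23 ± 0.11), and Umod, uromodulin, the most abundant, passed narrowly as higher (0.25 ± 0.11, edgeR adjusted p = 0.0492) and lost that call in 13 of 20 alternatives. Every marker of these lists had counts in at least 1 library. The part of these cell types in the values of the 30 genes was not tested.

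**Figure D3:**
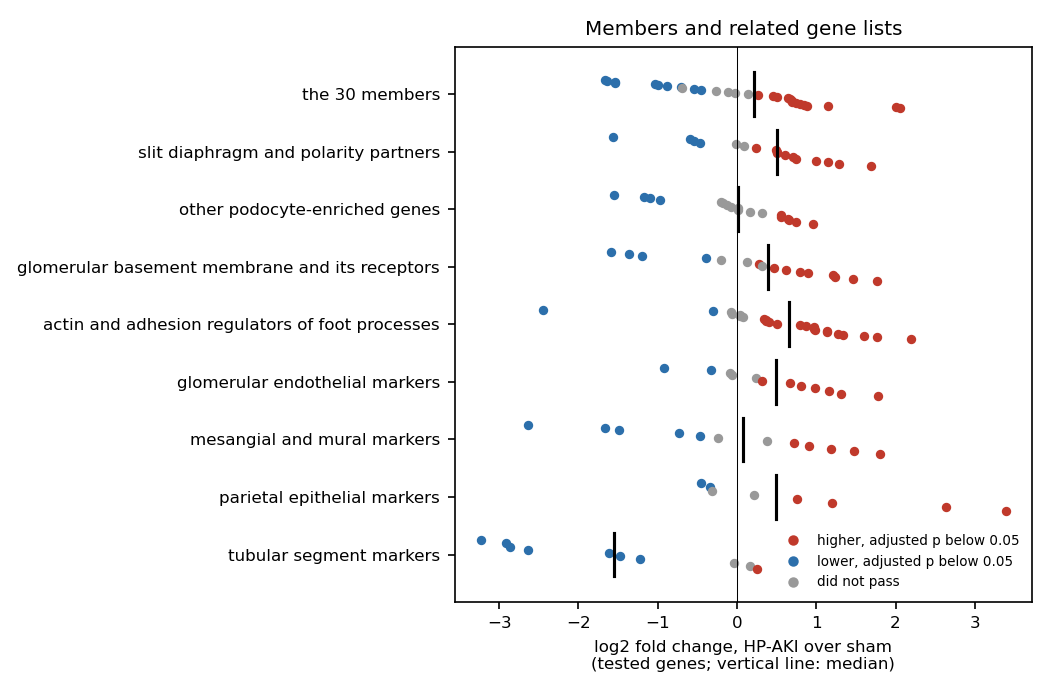
Log2 fold change of HP-AKI over sham for every tested gene of the 30 members and of 8 related lists, with the median of each list as a vertical line. Red points are called higher, blue points called lower and grey points did not pass; the members and all lists hold genes on both sides, with medians from -1.55 for tubular markers to 0.65 for actin and adhesion regulators and 0.21 for the members.

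Levels can be compared between genes only per length, here as mean CPM per kilobase of the listed gene length. Ezr was the most abundant of the 30 genes, at 162 ± 14.7 in HP-AKI and 72.9 ± 4.51 in sham (SD, n = 6 each). Podxl followed, at 82.3 ± 9.81 in HP-AKI and 60.4 ± 5.4 in sham. The next places were held by Cd2ap and Actn4 in both groups, whose values lay within 1 SD of each other. Nphs1 stood at 3.18 ± 0.469 in HP-AKI and 5.21 ± 0.875 in sham. Lmx1b, at 0.332 ± 0.0879 in HP-AKI and 0.336 ± 0.0693 in sham, and Trpc6 were the lowest in both groups. Rank 6 of the 30 was held by Nes in HP-AKI, at 25.9 ± 6.76, and by Arhgap24 in sham, at 24.1 ± 0.858. Nes ranked 11 in sham at 6.43 ± 0.534, and Arhgap24 ranked 11 in HP-AKI at 7.74 ± 0.447.

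**Figure D4:**
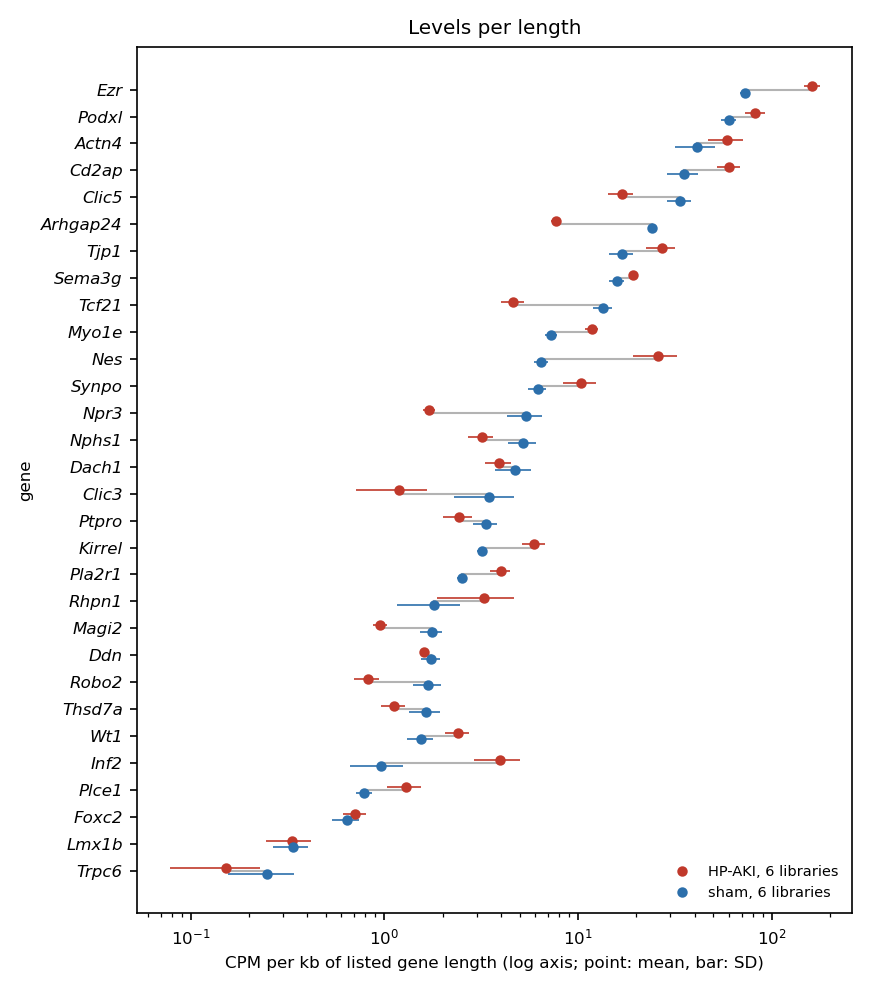
Mean CPM per kilobase of listed gene length for the 30 genes on a log axis, ordered by the sham mean, with HP-AKI in red above sham in blue; bars are the SD over 6 libraries. Ezr and Podxl are highest and Lmx1b and Trpc6 lowest in both groups, and the long grey links mark Nes and Inf2 (higher in HP-AKI) and Npr3, Arhgap24, Tcf21 and Clic3 (lower in HP-AKI).

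Single libraries were not equally placed within their groups. HP-AKI 8 held the highest HP-AKI value in 14 of the 30 genes, among them Synpo, Wt1, Tjp1 and Plce1, and HP-AKI 12 the lowest in 12. Sham 2 held the highest sham value in 15 genes and sham 5 the lowest in 11. Without HP-AKI 8, sham 1 and sham 2, all 25 called members kept their direction and passed. The log2 fold change was then 1.85 for Inf2 (edgeR adjusted p = 2.75e-07), 0.35 for Actn4 (edgeR adjusted p = 0.00973), 0.63 for Rhpn1 (edgeR adjusted p = 0.0341), -0.83 for Nphs1 (edgeR adjusted p = 9.15e-05) and -1.73 for Clic3 (edgeR adjusted p = 6.05e-06). Dach1 was then called as lower, which made 15 members higher and 11 lower. The counts of called genes in the 8 related lists moved by at most 2 in either direction. Glomerular endothelial markers then had 6 higher and 2 lower, with Eng no longer called, and tubular markers had 7 lower, with Umod no longer called (0.11, edgeR adjusted p = 0.36). The other podocyte-enriched genes had 5 higher and 4 lower, as Foxd1 and Rab3b lost their calls and Foxc1 gained one as higher.

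**Figure D5:**
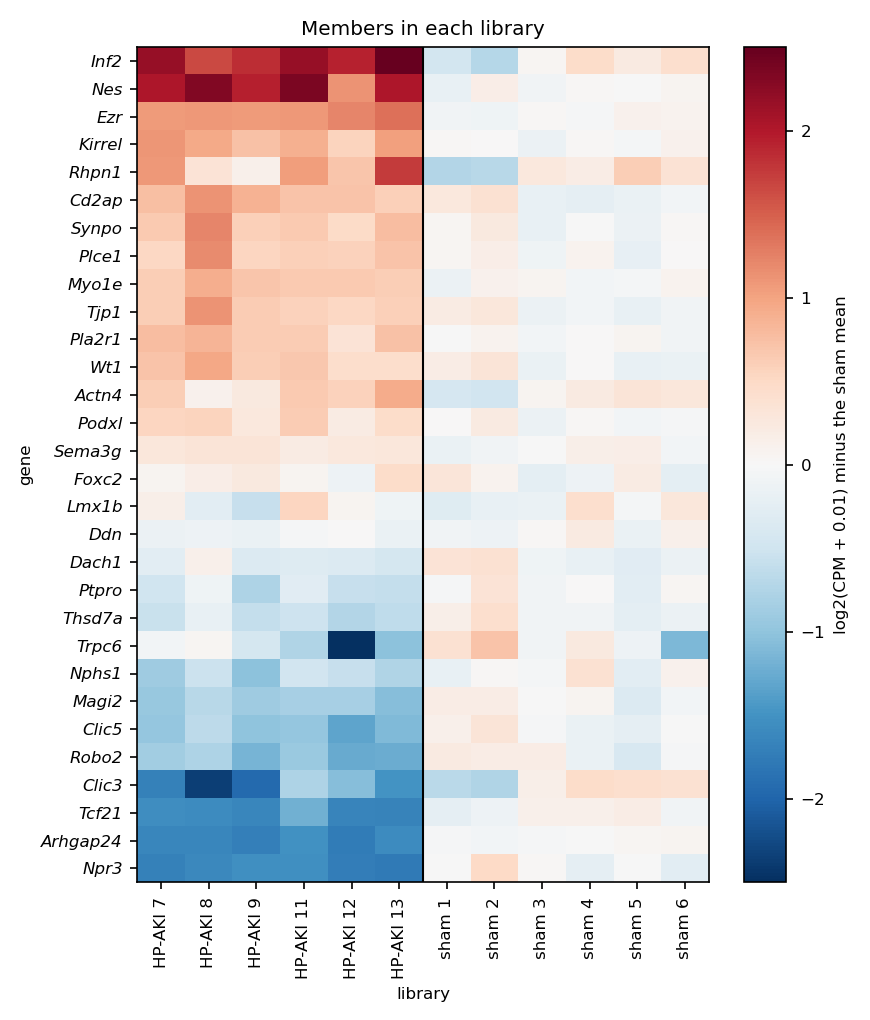
Level of each of the 30 genes in each library, as log2(CPM + 0.01) minus the sham mean of that gene, with the HP-AKI libraries left of the sham libraries and genes ordered by log2 fold change. Red is above and blue below the sham mean; rows at the top (Inf2, Nes, Ezr) are red and rows at the bottom (Npr3, Arhgap24, Tcf21) blue in every HP-AKI library, and Trpc6 in HP-AKI 12 stands out as the deepest blue of its row.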

How the data were processed

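Whole kidney RNA was measured in 12 libraries, 6 HP-AKI and 6 sham. Per the labels, RNA was isolated with Trizol and a Qiagen kit, and libraries were made with TruSeq RNA v2. TopHat2 2.1.0, featureCounts, edgeR and the build GRCm38 stand in the submitters' processing notes, with neither settings nor strand mode. All tests used the counts that the authors deposited, which are whole numbers for each gene and carry no normalization. The deposited RPKM values, also made by the authors, served only for a check, in which the total they imply for a library exceeded its summed counts 2.98-fold to 3.47-fold. The lowest library held 31624522 counts, so counting error matters only for rare genes such as Trpc6. No pair of libraries within a group was near-identical, and pairs across groups were not compared.

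Counts were filtered with filterByExpr, scaled with TMM factors and tested with edgeR 4.0.16 (R 4.3.3), by a two-sided quasi-likelihood F-test with group as the only term and Benjamini-Hochberg adjustment over 17470 genes. The SE is the log2 fold change divided by the square root of F. Intervals are at 95%. Alternatives were RLE and upper-quartile factors, library size only, no filter, at least 1 CPM in 6 libraries, DESeq2 1.42.0, limma-voom (limma 3.58.1), each library left out in turn, and HP-AKI 8, sham 1 and sham 2 left out together. The steps were tested on simulated data. No pairing or batch is recorded in the labels.

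The 30 members and the 8 related lists (120 genes, 2 of them matched by identifier under an older symbol) were chosen with earlier results of these data known, so no test was made over a list. The text names all members, and of each list the called genes with the largest rise and fall and the most abundant gene. Some of these are not reported here. In GENCODE vM21, 31 of the 32 member rows were found. The main rows of Nphs1, Magi2, Pla2r1, Actn4, Ddn and Ezr share 0.1 to 9.0% of their exon bases with another gene of the annotation, whose mean was at most 0.671 CPM, and these reads cannot be told apart without knowing how they were counted. The second Pla2r1 identifier, absent from that annotation, spans nearly the same locus at 24.7 ± 2.6 CPM in HP-AKI and 15.5 ± 0.84 CPM in sham (SD, n = 6 each), so its overlap was not measured. Python 3.11.15, pandas 2.3.3 and matplotlib 3.10.9 made tables and figures.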

Additional observations from a re-analysis of the deposited data

Results flagged for a closer look

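For the members, single libraries were compared with the rest of their group of 6, and 9 of 62 groups had 1 library set apart by more than Dixon's limit, where chance flags about 1 group in 20. HP-AKI 8 was that library in 6 of them. Tjp1 was at 269.6 CPM in HP-AKI 8, with the next HP-AKI library at 191 CPM, and without HP-AKI 8 its log2 fold change was 0.56. Plce1 was at 28.6 CPM (next 20.6 CPM), and its log2 fold change without that library was 0.56. Thsd7a was at 19.5 CPM (next 15.6 CPM), with a log2 fold change of -0.64 without it. For Dach1, at 37.1 CPM (next 28.2 CPM), that value was -0.38. Synpo was at 137 CPM (next 101 CPM) and had a log2 fold change of 0.60 without HP-AKI 8. Myo1e was at 67.0 CPM (next 58.4 CPM), and its value without HP-AKI 8 was 0.62. Tcf21 was highest in HP-AKI 11 at 7.15 CPM (next 5.61 CPM), and the second Pla2r1 row was lowest in HP-AKI 12 at 19.4 CPM (next 25.2 CPM). Npr3 was highest in sham 2 at 51.7 CPM (next 37.4 CPM), and without sham 2 its log2 fold change was -1.56.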

How the results depend on the processing

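Of the 25 member calls, 24 passed in the same direction under all 20 alternatives, and Rhpn1 was lost without HP-AKI 13. The number of members higher in HP-AKI ran from 14 to 15 and lower from 10 to 12. Over all genes, 5761 to 7546 were higher and 5402 to 7087 lower. With library size only, the median log2 fold change of all genes tested moved by 0.12, to 0.16, and that of the members to 0.327, against 0.209 with TMM, so small changes hold relative to the scaling. In that setting Lmx1b turned to 0.10 and Ddn to 0.01. With 1 library left out, Lmx1b ran from -0.17 to 0.07 and was positive without HP-AKI 8, HP-AKI 9, sham 4 or sham 6. Neither gene passed in any of these. Of 320 recomputed counts for the related lists, 16 differed by over 1.5 times. The causes were not tested. No paired analysis was possible because the groups share no replicate numbers. Depth limits Trpc6, Clic3, Lmx1b and Foxc2 most.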
